A study of Rattus norvegicus with 14 samples.

Results

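Insig1 and 7 enzymes of sterol synthesis that are known targets of the transcription factor SREBP2 were followed in rat thoracic aorta: Insig1, Hmgcs1, Idi1, Fdps, Fdft1, Sqle, Lss and Dhcr7. A gene was taken from every probe set of the array to which the platform annotation gives that single symbol, and where a gene had several, the probe set with the greatest average across the 14 arrays stands for it. By this rule 7 of the 8 genes had values, on 10 probe sets, out of 14217 named genes. Hmgcs1, a synthase of the mevalonate pathway, had no such probe set and its values were not analysed here. The groups were A-CRF (8 samples), Sprague-Dawley rats in which adenine had been used to induce chronic renal failure, and Control (6 samples), Sprague-Dawley rats without that label. All samples were total RNA of thoracic aorta, kept in RNAlater before freezing, on 1 Affymetrix array each. The labels give neither the ages, the sexes, the dose nor the duration of adenine, and they do not say that each sample came from a separate animal, so p-values cover sample-to-sample spread only, part of which may be technical.

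Cells make cholesterol from acetyl-CoA through mevalonate, isopentenyl units, farnesyl diphosphate, squalene and lanosterol. When sterols in the endoplasmic reticulum are scarce, the escort protein SCAP carries SREBP2 to the Golgi apparatus, where proteases release its transcription factor domain, and the genes of nearly every step are transcribed together. When sterols are plentiful, INSIG proteins hold the SCAP and SREBP complex in the endoplasmic reticulum, and transcription of these genes falls. Insig1 is itself an SREBP target, and in liver it is known to respond to the SREBP1 form that drives fatty acid synthesis as well. In a bulk aorta, which holds smooth muscle, endothelium, adventitia and adherent fat, fewer cells of a type and less RNA per cell cannot be told apart.

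The promoter sequences are shown for Insig1, the member that changed, and for 2 enzymes of the same pathway that did not pass the test, Idi1 and Fdps, because the members are known as targets of 1 transcription factor. They are the RefSeq windows (build GRCr8) of 300 bases, from 250 bases before to 50 after the annotated start, read along the gene. The window was available for 6 of the 8 members. Insig1 lies at chr4:8057720-8058019 on the minus strand, Idi1 at chr17:66547475-66547774 on the minus strand and Fdps at chr2:176804767-176805066 on the minus strand. Capitals mark matches, on either strand, to CACNCCAC (the core of the sterol regulatory element), CCAAT (bound by NF-Y), GGGCGG (bound by Sp1) and CACGTG (an E-box).
Insig1: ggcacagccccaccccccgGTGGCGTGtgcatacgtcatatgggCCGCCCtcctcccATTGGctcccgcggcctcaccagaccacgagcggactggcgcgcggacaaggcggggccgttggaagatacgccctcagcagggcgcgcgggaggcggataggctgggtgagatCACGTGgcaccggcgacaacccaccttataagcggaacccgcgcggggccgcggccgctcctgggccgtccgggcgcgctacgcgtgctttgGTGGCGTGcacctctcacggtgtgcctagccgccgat
Idi1: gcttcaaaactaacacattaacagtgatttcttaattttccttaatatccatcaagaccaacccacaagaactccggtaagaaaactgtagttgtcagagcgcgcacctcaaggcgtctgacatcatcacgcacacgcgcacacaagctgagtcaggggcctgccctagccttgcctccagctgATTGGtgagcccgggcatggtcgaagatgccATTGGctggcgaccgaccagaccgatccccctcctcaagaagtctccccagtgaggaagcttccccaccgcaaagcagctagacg
Fdps: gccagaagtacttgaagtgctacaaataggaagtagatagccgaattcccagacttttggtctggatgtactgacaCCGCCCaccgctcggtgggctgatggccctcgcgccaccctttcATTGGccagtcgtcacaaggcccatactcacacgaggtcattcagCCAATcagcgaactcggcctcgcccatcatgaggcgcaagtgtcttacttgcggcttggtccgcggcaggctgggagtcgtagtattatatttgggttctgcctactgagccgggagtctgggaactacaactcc

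The longer form TCACNCCAC, which contains that core, matched 0 of the 6 windows and 1.12% of the 33469 promoters in the same table. The core CACNCCAC matched 1 of the 6, Insig1, at 2 places, against 5.80% of all promoters. CCAAT matched 5 of the 6 windows, all but Dhcr7, against 37.5% of all promoters, and GGGCGG matched 5 of the 6, all but Idi1, against 33.1%. CACGTG matched only Insig1 among the 6, with its first base 79 bases before the start, against 6.42% of all promoters. These are matches of letters, and a window without a match says only that these letters are not in it.

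Across all probe sets, arrays correlated with each other at 0.970 to 0.997. Myh11, the smooth muscle myosin heavy chain, had means of 11.58 in A-CRF aortas and 11.87 in Control aortas (log2 units), the level of a main transcript of smooth muscle. Myh11 was itself lower in A-CRF (log2 fold change -0.29, adjusted p = 0.043 by limma). On A-CRF 1, A-CRF 4 and Control 1 the control probe set at the 3' end of GAPDH stood 1.90, 1.63 and 1.58 log2 units above the one at its 5' end, against 0.37 to 0.55 on the other arrays, so results for the members are also given without these arrays. Over all 31042 probe sets tested, 636 passed an adjusted p of 0.05 (391 higher and 245 lower in A-CRF), which is 2.05% in either direction and 0.789% lower. The values of the 2 groups did not overlap for 1.38% of the probe sets. The median log2 fold change of all probe sets was -0.0020, and the lowest value in the table was 4.82.

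Insig1 fell in A-CRF aortas, and it alone among the 7 measured members passed the test; 0 members rose, 1 fell and 6 missed the threshold. The 6 measured enzymes, Idi1, Fdps, Fdft1, Sqle, Lss and Dhcr7, had log2 fold changes between -0.06 and 0.24. The median log2 fold change of the 7 members was -0.0003, beside -0.0020 for all probe sets. Of the 7 members 1 was lower, beside 0.789% of all probe sets, and 1 passed by an exact rank-sum test, beside 429 of 31042 probe sets. With these group sizes the probe sets that passed the rank-sum test were those whose groups did not overlap, also 429. Here and below that test therefore restates the overlap and is not a separate check. At an unadjusted p under 0.05 there was 1 of 7 members, beside 14.4% of all probe sets, which is about the same share.

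Insig1, the sterol-sensing retention protein, lay between 7.08 and 7.53 log2 units on the 8 A-CRF arrays, with a median of 7.18. On the 6 Control arrays it lay between 7.58 and 8.40, with a median of 7.98. Every A-CRF array was below every Control array, although the highest A-CRF array (A-CRF 1) and the lowest Control array (Control 2) were close. The means were 7.27 ± 0.19 in A-CRF and 7.94 ± 0.30 in Control (SD, n = 8 and 6). The log2 fold change was -0.66 ± 0.12 (SE), with a 95% interval from -0.92 to -0.41, which is 0.63 of the Control level (interval 0.527 to 0.755), at an adjusted p of 0.014 by limma. Among all genes past the threshold it was the 10th largest fall. Without A-CRF 1, A-CRF 4 and Control 1 the log2 fold change was -0.80 (adjusted p = 0.010), and leaving out each array in turn gave -0.74 to -0.57, all past the threshold.

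**Figure D1:**
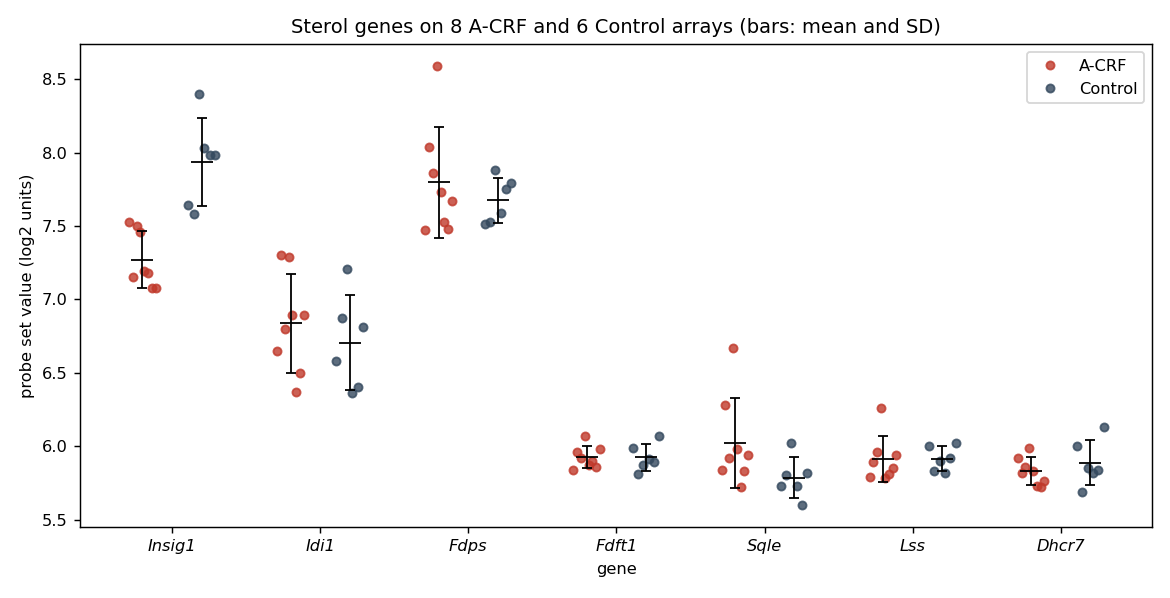
Probe set values (y axis, log2 units) of Insig1 and the 6 measured enzymes (x axis) on 8 A-CRF arrays (red) and 6 Control arrays (dark); points are arrays and bars are the mean and SD. For Insig1 the highest A-CRF array (7.53) is below the lowest Control array (7.58), and for the other 6 genes the groups overlap.

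Idi1, the isomerase that interconverts the isopentenyl and dimethylallyl diphosphates from which sterols are built, lay between 6.37 and 7.30 log2 units in A-CRF with a median of 6.84, against 6.36 to 7.21 in Control with a median of 6.70. The groups covered nearly the same range, with A-CRF 2, A-CRF 4 and Control 3 at the top. The log2 fold change was 0.13 ± 0.17 (interval -0.22 to 0.49, adjusted p = 0.835). A second Idi1 probe set gave 0.10 ± 0.11 (adjusted p = 0.81).

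Fdps, which makes farnesyl diphosphate, the branch point between sterols and other isoprenoids, lay between 7.47 and 8.59 in A-CRF with a median of 7.70. In Control it lay between 7.51 and 7.88 with a median of 7.67. A single array, A-CRF 4, set the upper end of the A-CRF range, and the next highest, A-CRF 2, was at 8.04. The log2 fold change was 0.12 ± 0.15 (interval -0.20 to 0.45, adjusted p = 0.831), and without the 3 arrays named above it was 0.013.

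Fdft1, the squalene synthase, lay between 5.84 and 6.07 in A-CRF with a median of 5.91, against 5.81 to 6.07 in Control with a median of 5.90. These ranges were nearly the same. Its log2 fold change was -0.0003 ± 0.043 (interval -0.092 to 0.091, adjusted p = 0.999), and a second probe set gave -0.046 ± 0.048 (adjusted p = 0.78).

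Sqle, the epoxidase that adds the first oxygen to squalene and a control point of the pathway, lay between 5.72 and 6.67 in A-CRF with a median of 5.93. In Control it lay between 5.60 and 6.02 with a median of 5.77. A-CRF 4 and A-CRF 2 were above every Control array, and the other 6 A-CRF arrays lay within the Control range. Its log2 fold change of 0.24 ± 0.13 was the largest positive one among the members and did not pass the test (interval -0.03 to 0.51, adjusted p = 0.43); without the 3 arrays it was 0.15. The Control mean of Sqle, 5.78 ± 0.14, lay less than 1 log2 unit above the table's lowest value, where a change may be compressed.

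Lss, the cyclase that makes lanosterol, lay between 5.78 and 6.26 in A-CRF with a median of 5.87, against 5.82 to 6.02 in Control with a median of 5.91. A-CRF 4 was again the highest array. The log2 fold change was -0.0073 ± 0.067 (interval -0.15 to 0.14, adjusted p = 0.99), and the second probe set gave -0.0021 ± 0.030 (adjusted p = 0.99).

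Dhcr7, a reductase of a last step to cholesterol, lay between 5.72 and 5.99 in A-CRF with a median of 5.83. In Control it lay between 5.69 and 6.13 with a median of 5.85. Both ends of its range were Control arrays, Control 2 and Control 6. The log2 fold change was -0.06 ± 0.06 (interval -0.19 to 0.07, adjusted p = 0.78). For the 6 enzymes together, the intervals leave room for changes of at most 0.51 upwards (Sqle) and 0.22 downwards (Idi1) on the log2 scale.

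The change of Insig1 was set against the change of each enzyme on the same arrays, with an exact two-sided permutation test of the difference over the 3003 arrangements of the 14 arrays. The change of Insig1 was lower than that of Sqle by a difference of -0.90 (exact permutation p = 0.00033, the smallest that the arrangements can give; adjusted over the 6 comparisons, 0.0013). The Insig1 minus Sqle values of the 2 groups did not overlap. The difference was -0.80 for Idi1 (exact p = 0.0020, adjusted 0.0020) and -0.79 for Fdps (exact p = 0.0017, adjusted 0.0020). It was -0.66 for Lss (exact p = 0.00067, adjusted 0.0013) and -0.66 for Fdft1 (exact p = 0.0010, adjusted 0.0015). For Dhcr7, the smallest of the 6, it was -0.60 (exact p = 0.00067, adjusted 0.0013). All 6 differences stayed past 0.05 when each array was left out in turn, with a highest adjusted p of 0.0054. These 6 comparisons share the same Insig1 values, so they are not 6 independent results. Insig1 and the enzymes were chosen with earlier results of these data known, so the p-values are descriptive. Sqle, Fdft1, Lss and Dhcr7 lie low on the array scale, where a change may be compressed.

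**Figure D2:**
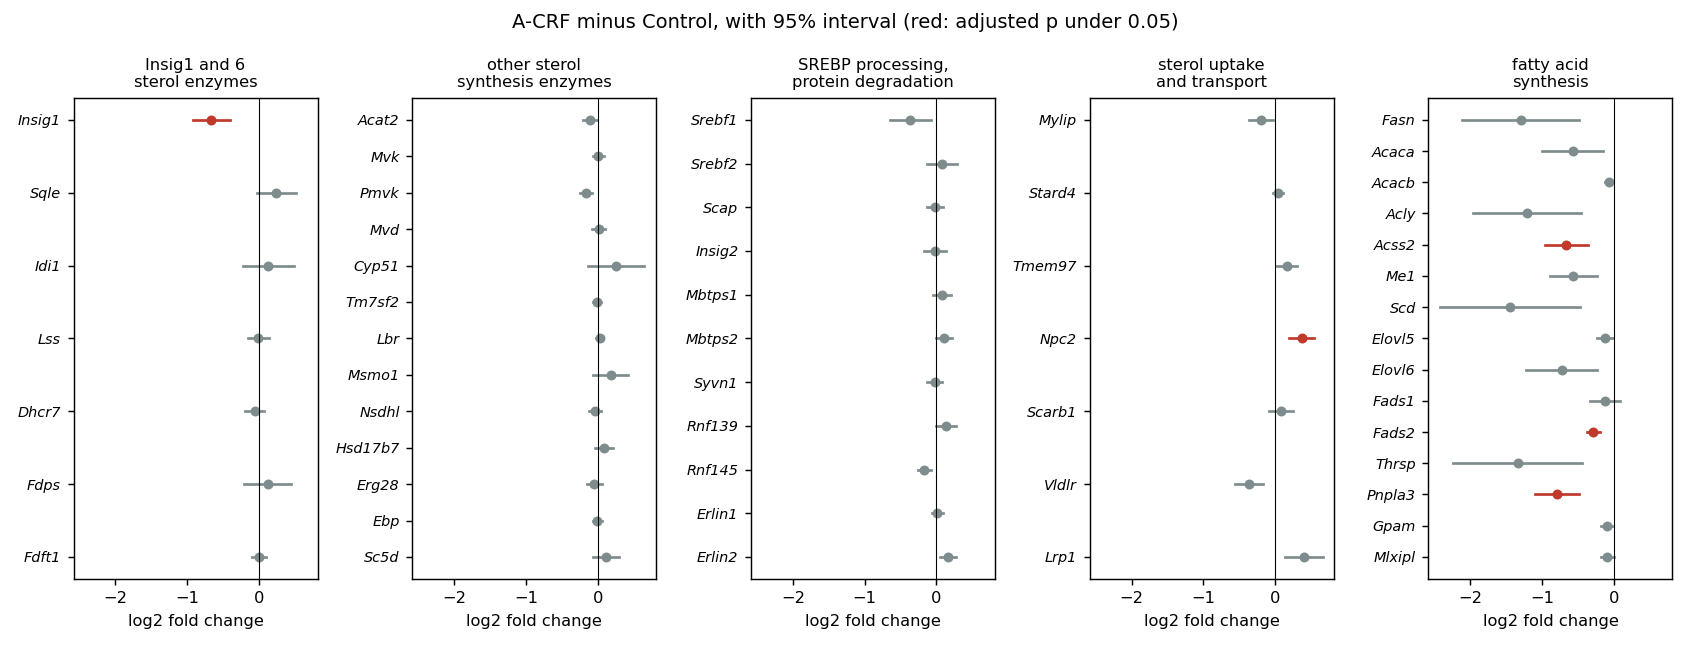
Log2 fold change, A-CRF minus Control (x axis), with its 95% interval, for the measured genes of 5 lists (rows); red marks an adjusted p under 0.05. Insig1 is at -0.66, the 6 sterol enzymes lie between -0.06 and 0.24, and all 15 fatty acid synthesis genes are below 0.

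Arrays of 1 group can differ in pathway activity or handling, so the members were also set against each other within each group. For Insig1 and each enzyme, 12 relations were computed and 0 passed after Benjamini-Hochberg adjustment. In A-CRF (n = 8) Pearson's r lay between 0.08 (Fdft1) and 0.83 (Dhcr7). Without A-CRF 1 and A-CRF 3, the arrays farthest from the Insig1 median, all 6 were higher. They were 0.53 for Idi1, 0.69 for Fdft1, 0.81 for Sqle, 0.81 for Lss, 0.88 for Fdps and 0.92 for Dhcr7. None of these passed (exact permutation test, adjusted p 0.32 to 0.57). A-CRF 4 stayed in, with Insig1 at 7.46 against 7.08 to 7.19 on the other arrays left. It was also the highest A-CRF array for every enzyme but Idi1, so these r values may rest on it. With all 8 A-CRF arrays the exact permutation p for Dhcr7 was 0.014 (adjusted 0.10) and Spearman's rho was 0.81 (exact p = 0.022, adjusted 0.26). In Control (n = 6) r lay between -0.03 (Lss) and 0.87 (Fdps). For Fdps the exact permutation p was 0.017 (adjusted 0.10), rho was 0.71 (exact p = 0.14, adjusted 0.82), and r was 0.68 without Control 2 and Control 3. The Control r of Sqle, Idi1, Dhcr7 and Fdft1 was below 0 without those 2 arrays.

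The correlations of the enzymes with each other were examined too, after their values had been seen. Over the 15 pairs of 6 enzymes, r in A-CRF lay between 0.41 and 0.97 with a median of 0.84, and 15 of 15 were positive. In Control r lay between -0.18 and 0.97 with a median of 0.27, and 12 of 15 were positive. Adjusted over these 30 relations, 7 pairs in A-CRF and 3 in Control passed by Pearson's r. By Spearman's rho only Sqle with Idi1 in A-CRF passed (exact permutation test, adjusted p 0.034), and the next lowest adjusted p was 0.14. Whether the groups differ in this was not tested.

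Sqle and Idi1 had an r of 0.90 in A-CRF (exact permutation p = 0.00020, adjusted 0.0060, n = 8), with a rho of 0.95 (exact p = 0.0011, adjusted 0.034). Without A-CRF 2 and A-CRF 4 their r was 0.97. In Control the same pair had an r of 0.93 (exact permutation p = 0.0083, adjusted 0.036, n = 6) and a rho of 0.89 (exact p = 0.033, adjusted 0.14), and r was 0.91 without the 2 arrays farthest from the median of Sqle. Of the other relations in A-CRF, some had a higher r without the 2 arrays farthest from the median and some a lower one. That of Idi1 with Fdps had an r of 0.85, and 0.92 without A-CRF 2 and A-CRF 6. That of Idi1 with Fdft1 had 0.74 and 0.88, and that of Idi1 with Lss had 0.64 and 0.82. With all arrays these last relations did not pass (exact permutation test, adjusted p 0.088 for Fdft1 and 0.15 for Lss). A-CRF 4 stayed in for these Idi1 pairs, so their dependence on it was not examined. That of Lss with Fdft1 had 0.90, and 0.74 without A-CRF 4 and A-CRF 5. That of Sqle with Fdps had an r of 0.97, and 0.70 without A-CRF 2 and A-CRF 4, and that of Sqle with Lss had 0.84 and 0.35. That of Lss with Dhcr7 had 0.59, and -0.03 without A-CRF 4 and A-CRF 5. A-CRF 4 was the highest A-CRF array for Sqle, Lss, Dhcr7, Fdps and Fdft1, and it is among the arrays set apart by GAPDH.

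**Figure D3:**
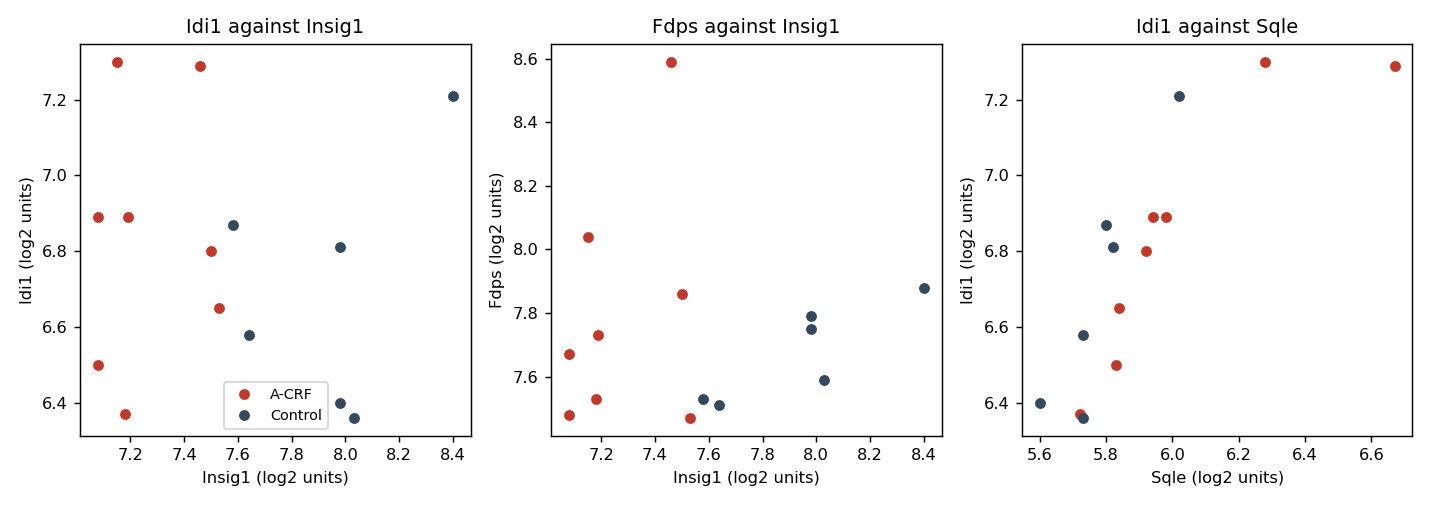
Values of Idi1 and of Fdps (y axes, log2 units) against Insig1, and of Idi1 against Sqle (x axes, log2 units), 1 point per array, A-CRF in red and Control dark. Insig1 separates the groups along its axis at overlapping Idi1 and Fdps values, and Idi1 and Sqle follow each other in both groups (r 0.90 in A-CRF and 0.93 in Control).

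The genes whose pattern was most like that of Insig1 were sought by Pearson's r over the 14 arrays after removing each group's mean, among 9316 genes above the median level. The closest 10 were Yrdc (r 0.86), Ralgdsl1 (0.83), Dnajc3 (0.82), Ptprf and Nipbl (0.81 each), Mapre2 and Sulf2 (0.80 each), and Pbx3, R3hdm1 and Ecpas (0.79 each). None of these 10 passed the test between the groups. The sterol enzymes ranked lower, Fdps at place 937 (r 0.41), Dhcr7 at 1358 (0.35), Sqle at 1912 (0.29) and Idi1 at 2250 (0.25). Lss was at 2972 (0.18) and Fdft1 at 4684 (0.04). All points of 1 gene share the same 14 arrays, so these are descriptions.

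Of 15 other enzymes of sterol synthesis listed, 13 were measured, and 0 were higher, 0 lower and 13 did not pass (by the rank-sum test 0 passed). At an unadjusted p under 0.05 there were 2 of 13, beside 14.4% of all probe sets. Their log2 fold changes lay between -0.16 and 0.26 with a median of 0.0077. Cyp51, the lanosterol demethylase, averaged 6.82 ± 0.42 in A-CRF and 6.57 ± 0.27 in Control (0.26 ± 0.18, adjusted p = 0.61). With probe sets of several transcripts left out, another Cyp51 probe set gave 0.076 (adjusted p = 0.71 by limma). Msmo1, a methylsterol oxidase, averaged 7.06 ± 0.27 in A-CRF and 6.88 ± 0.15 in Control (0.18 ± 0.11, adjusted p = 0.54). The 2 genes at an unadjusted p under 0.05, named after their values were seen, had negative differences, -0.16 ± 0.04 for Pmvk, the phosphomevalonate kinase (adjusted p = 0.055), and -0.11 ± 0.05 for Acat2, an acetyl-CoA thiolase (adjusted p = 0.28). Pmvk passed without A-CRF 4 (adjusted p = 0.041) or A-CRF 7 (adjusted p = 0.036) and under 4 other settings.

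The genes of SREBP processing and of sterol-regulated protein degradation gave 0 calls among 11 measured of 13 listed (3 at an unadjusted p under 0.05, beside 14.4% of all probe sets, and 0 by the rank-sum test), with a median log2 fold change of 0.014. Srebf2, which encodes SREBP2, lay between 6.93 and 7.70 in A-CRF (median 7.13), against 6.97 to 7.26 in Control (median 7.09). A-CRF 4 was once more the highest array, and the difference was 0.08 ± 0.10 (adjusted p = 0.83). Insig2, the paralog of Insig1, lay between 6.44 and 6.97 in A-CRF (median 6.72), against 6.58 to 6.84 in Control (median 6.74), with a difference of -0.02 ± 0.07 (adjusted p = 0.95). Unlike for Insig1, its groups overlapped over the whole Control range. Srebf1, which encodes the SREBP1 forms, had the largest difference of the list, -0.36 ± 0.13 (adjusted p = 0.185), with 6.59 ± 0.22 in A-CRF and 6.96 ± 0.30 in Control. Rnf145, a ubiquitin ligase of the endoplasmic reticulum, averaged 7.15 ± 0.088 in A-CRF and 7.32 ± 0.077 in Control (-0.17 ± 0.04, adjusted p = 0.064). It passed with dim probe sets left out (adjusted p = 0.049) and without A-CRF 5 (-0.19, adjusted p = 0.032). Averaged over its probe sets, Rnf145 had a smaller difference, -0.072 (adjusted p = 0.064 by limma).

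Among genes of sterol uptake and transport, 7 of 10 were measured, and 1 rose, 0 fell and 6 missed the threshold. At an unadjusted p under 0.05 there were 5, beside 14.4% of all probe sets. Over all probe sets 2.05% passed the threshold in either direction, and 429 of 31042 passed the rank-sum test. By the rank-sum test 1 passed, Lrp1, an endocytic receptor named after its values were seen (adjusted p = 0.048; 0.40 ± 0.12 and adjusted p = 0.11 by limma), and Npc2 did not (adjusted p = 0.064). Averaged over its probe sets, Lrp1 had a smaller difference, 0.20 (adjusted p = 0.083 by limma). Npc2, the lysosomal protein that hands cholesterol to NPC1, lay between 9.0 and 9.65 in A-CRF (median 9.19), against 8.73 to 9.02 in Control (median 8.86). The ranges overlapped slightly, at A-CRF 6 and Control 3. The log2 fold change was 0.37 ± 0.08 (adjusted p = 0.035). Npc2 is abundant in macrophages, and 7 of 9 macrophage markers were higher in A-CRF, beside 2.05% of all probe sets called in either direction. The mean level of these markers was 7.41 to 7.86 in A-CRF and 6.99 to 7.18 in Control. Their part in the result was not tested. The call of Npc2 lay near the threshold. Leaving out each array in turn gave 0.31 to 0.40, with limma adjusted p from 0.020 to 0.075, past the threshold in 6 of 14 fits. The call was lost without A-CRF 2, 3 or 5 and without Control 1, 2, 4, 5 or 6. The change itself was not smaller in some of these fits, at 0.38 without A-CRF 5 and 0.39 without Control 5.

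Efflux, esterification and oxysterol genes gave 0 calls among 11 measured of 11 listed, beside 2.05% of all probe sets called in either direction. There was 1 at an unadjusted p under 0.05, beside 14.4% of all probe sets, and 0 by the rank-sum test. Their median log2 fold change was 0.0094. Apoe, the main apolipoprotein of macrophage efflux, had the largest difference, 0.26 ± 0.19 (adjusted p = 0.62). Ch25h, which makes an oxysterol that blocks SREBP processing, had 0.13 ± 0.05 (adjusted p = 0.24). The isoprenoid branch beyond farnesyl diphosphate gave 0 calls among 7 measured of 8 listed, beside the same 2.05%. In this branch 0 were at an unadjusted p under 0.05, beside 14.4% of all probe sets, and 0 passed by the rank-sum test. Its differences ran from -0.05 for Fnta, the shared subunit of the protein prenyltransferases, to 0.04 for Pggt1b, a subunit of the enzyme that adds geranylgeranyl groups.

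Fatty acid synthesis genes, many of them known targets of SREBP1, were measured for all 15 listed. Of these 0 were higher, 3 were lower, beside 0.789% of all probe sets lower, and 12 did not pass. By the rank-sum test 1 passed, Fads2, beside 429 of 31042 probe sets. At an unadjusted p under 0.05 there were 13 of 15, beside 14.4% of all probe sets. Without A-CRF 1, A-CRF 4 and Control 1, 9 of the 15 were past the threshold and lower, beside 2.89% of all probe sets past it in either direction. With all arrays the median log2 fold change of the 15 genes was -0.57, beside -0.0020 for all probe sets, and 15 of 15 were negative. Without A-CRF 1, A-CRF 4 and Control 1 the median was -0.66. Pnpla3, a lipid droplet hydrolase and SREBP1 target, fell by 0.79 (log2 fold change -0.79 ± 0.14, adjusted p = 0.014), with 5.21 to 6.14 in A-CRF (median 5.32), against 5.74 to 6.47 in Control (median 6.27). Acss2, which makes acetyl-CoA from acetate and feeds both pathways, had -0.66 ± 0.14 (adjusted p = 0.026), with 6.63 to 7.49 in A-CRF (median 6.90), against 7.29 to 7.90 in Control (median 7.54). Fads2, a desaturase, had -0.29 ± 0.04 (adjusted p = 0.0062), with 5.43 to 5.75 in A-CRF (median 5.57), against 5.80 to 5.94 in Control (median 5.88). Only Fads2 had groups without overlap among these 3. A-CRF 1 was the highest A-CRF array for Pnpla3 and Acss2, as it was for Insig1. The call of Acss2 was lost without A-CRF 3 or 5 and without Control 1, 3, 5 or 6, where its log2 fold change lay between -0.68 and -0.60.

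The level of Insig1 was also read beside the scores that differ between arrays. The mean of the 15 fatty acid synthesis genes lay between 6.46 and 7.75 in A-CRF (median 6.86), against 7.26 to 7.68 in Control (median 7.52). With this score as a covariate, added after seeing the data, the log2 fold change of Insig1 was -0.57 and no longer passed (adjusted p = 0.75), in a fit that called 2 probe sets in all. The mean of the brown adipocyte markers, of which 0 of 7 passed, lay between 5.72 and 6.93 in A-CRF (median 6.07), against 6.12 to 7.03 in Control (median 6.44). With that score, also added after seeing the data, Insig1 had -0.66 (adjusted p = 0.059) in a fit that called 134 probe sets. White adipocyte markers, of which 0 of 8 measured passed, had a mean of 6.89 to 8.11 in A-CRF (median 7.65) and 7.55 to 8.18 in Control (median 7.67), and with this score Insig1 kept its call (-0.64, adjusted p = 0.030).

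Of the smooth muscle markers 1 of 7, Myh11, was lower, beside 0.789% of all probe sets. Their mean was 9.46 to 9.94 in A-CRF and 9.71 to 10.31 in Control. Of the endothelial markers 0 of 5 measured passed. Hepatocyte markers, of which 0 of 5 passed, had a mean of 5.42 to 5.68 in A-CRF and 5.59 to 5.75 in Control. The clock score was the mean of genes that peak with Dbp minus the mean of genes that peak with Arntl. Of these genes 0 of 8 and 1 of 3 measured passed, beside 2.05% of all probe sets. The score lay between -1.12 and 0.69 in A-CRF (median -0.60), against -0.45 to 0.76 in Control (median 0.56). Insig1 kept its call with this score as a covariate (-0.71, adjusted p = 0.043). The part of macrophages, smooth muscle and hepatocytes in the fall of Insig1 was not tested.

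**Figure D4:**
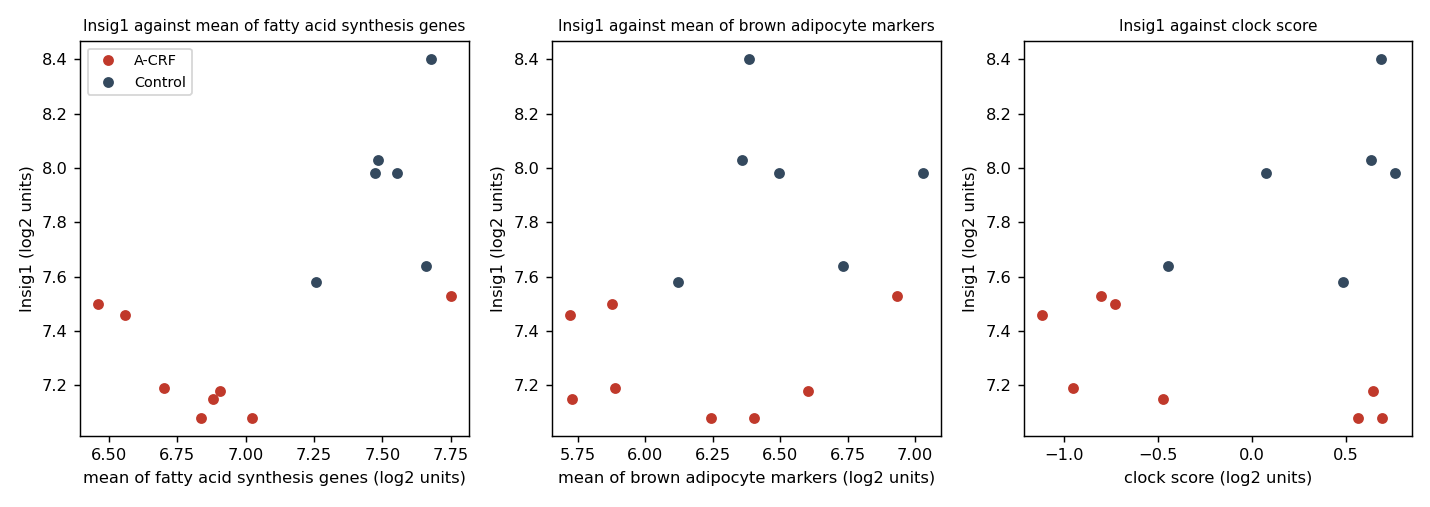
Insig1 (y axes, log2 units) against the mean of the fatty acid synthesis genes, the mean of the brown adipocyte markers and the clock score (x axes, log2 units), 1 point per array, A-CRF in red and Control dark. A-CRF 1 has the highest fatty acid synthesis score (7.75) and an Insig1 level of 7.53, below all Control arrays.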

How the data were processed

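Total RNA of 14 samples of rat thoracic aorta was hybridised to 1-colour Affymetrix arrays. The values deposited by the authors, 1 per probe set and array, were used as log2 values. The submitters' processing notes name PLIER, with no version. The log base is an inference from their range. For background correction, normalization and any offset, the sources used here state nothing. Arrays have no sequencing depth, and their number limits the precision.

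Of 31099 probe sets, 57 manufacturer controls were left out. The comparison of A-CRF with Control used lmFit and eBayes of limma 3.58.1 in R 4.3.3 (group as the only factor, two-sided), and p-values were adjusted by Benjamini-Hochberg over 31042 probe sets, with a threshold of 0.05. Differences are A-CRF minus Control, and each SE is the moderated one. The pairing of Insig1 with each enzyme and the correlations used exact permutation tests (Python version 3.11.15, SciPy version 1.17.1). With Hmgcs1 not analysed, 6 comparisons were made where 7 had been planned. The members, lists, scores and motifs were chosen with earlier results of these data known. Named were the members, every gene past the threshold in a sterol or fatty acid list (up to 6) or otherwise the 2 with the largest difference, and Srebf2 and Insig2; Myh11 was named as a tissue marker. The limma fit was tested on simulated data, and the other steps were not. Alternatives were median centring, array weights, quantile normalization, adding 16 to the linear values, dropping the dimmest 40 percent of probe sets, trend and robust options, an exact rank-sum test, other uses of a gene's probe sets, score covariates, and leaving out arrays. Of the deposited per-sample columns, 0 were left unused.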

Additional observations from a re-analysis of the deposited data

Results flagged for a closer look

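Lss on A-CRF 4 stood apart from the other A-CRF arrays: at 6.26 log2 units, against 5.96 on the next highest, the gap was 0.628 of the whole range of the 8 arrays. In all, 14 groups (7 members in A-CRF and in Control) were examined and 1 was marked in this way, and chance marks about 1 group in 20. A-CRF 4 is among the arrays set apart by the GAPDH control probe sets.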

How the results depend on the processing

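No paired analysis was possible because the labels give no replicate numbers that A-CRF and Control share. Under 12 alternatives chosen at the start, other than leaving out single arrays, Insig1 kept its direction and its call (-0.80 to -0.61; adjusted p 0.0018 to 0.048). The 6 differences between Insig1 and the enzymes kept theirs under quantile normalization and without A-CRF 1, A-CRF 4 and Control 1, the 2 alternatives run for them beside leaving out each array. The count of calls over all probe sets was 1457 with array weights, 148 with the clock score, 134 with the brown adipocyte score and 2 with the fatty acid synthesis score; leaving out each array in turn it was 307 to 979 (979 without A-CRF 1, 416 without A-CRF 3, 352 without A-CRF 5, and 420, 345, 307 and 365 without Control 2, 4, 5 and 6). With these last 2 scores, chosen after seeing the data, 0 members were called, and Insig1 had -0.66 (brown adipocyte) and -0.57 (fatty acid synthesis); 1 member was called otherwise; the cause was not tested.

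Genes that did not pass changed sign as follows. Fdft1 had 0.00083 with quantile normalization, 0.0050 as a median difference beside the rank-sum test, 0.0018 with the brown adipocyte score and 0.0031 without A-CRF 1, A-CRF 4 and Control 1. With the brown adipocyte score Idi1 had -0.017, Fdps -0.026 and Insig2 0.053. With the fatty acid synthesis score Fdps had -0.14, Cyp51 -0.084, Apoe -0.12, Pggt1b -0.046 and Insig2 0.071. With the clock score Srebf2 had -0.051 and Insig2 0.052; Insig2 had 0.029 with the white adipocyte score and 0.015 without the 3 arrays. Leaving out each array in turn gave -0.058 to 0.014 for Lss, -0.023 to 0.028 for Fdft1 and -0.060 to 0.015 for Insig2. Without the 2 farthest arrays, the Control correlations of Insig1 turned to -0.087 (Sqle), -0.21 (Idi1), -0.31 (Dhcr7) and -0.25 (Fdft1).

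Among other named genes, Npc2 lost its call with the rank-sum test (adjusted p 0.064) and the white adipocyte (0.066), clock (0.15), brown adipocyte (0.14) and fatty acid synthesis (0.99) scores. Pnpla3 lost it with the rank-sum test (0.087) and the brown adipocyte (0.053) and fatty acid synthesis (0.89) scores, Acss2 with the rank-sum test (0.11) and the clock (0.093) and fatty acid synthesis (1) scores, and Fads2 with the fatty acid synthesis score (0.49). Rnf145 gained a call with dim probe sets left out (0.049), and Pmvk with quantile normalization (0.023), dim probe sets left out (0.044), array weights (0.014) and averaged probe sets (0.040). The fatty acid synthesis score averages genes that include Pnpla3, Acss2 and Fads2, so each was adjusted for a mean that contains it. Their lost calls with that score therefore add no separate result. Only probe sets whose groups did not overlap passed the rank-sum test, so the calls lost with it restate that the groups overlapped. The cause of the other lost and gained calls was not tested. Sqle, Fdft1, Lss and Dhcr7 lie low on the array scale, where any offset in the deposited values would compress a change.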

Other observations

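The genes most like Idi1, the isomerase, were sought in the same way as for Insig1, after the correlations between the enzymes had been seen. Over the 14 arrays with each group's mean removed and among 9316 genes, the closest was Cyp51, the lanosterol demethylase (r 0.90), and the next was Sqle, the squalene epoxidase (0.86). Msmo1, the methylsterol oxidase, was at place 4 (0.84). Between and after them were Fbxo5 (0.84), Epha4 (0.83), Taf12 (0.82), Htra1 and Penk (0.80 each), and Gemin6 and Dnajb1 (0.79 each), genes not known for sterol synthesis. Insig1 was not among these 10.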
